A study of Homo sapiens with 2 samples.

Results

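Lysine acetyltransferases transfer an acetyl group from acetyl-CoA to lysines of histones and other proteins, and acetylated histones mark promoters and enhancers in use. To examine where HA-tagged RFX6 was found at their genes, the ChIP-seq peak list of MHCC-97H cells was searched for 9 acetyltransferase genes, namely KAT2A, KAT2B, KAT5, KAT6A, KAT6B, KAT7, KAT8, EP300 and CREBBP, out of 20037 protein-coding genes. The genes were selected on enzyme class and on a measured value, since KAT6A was known beforehand to carry the highest promoter score of the list. That score is therefore described and not tested. An interval was assigned to a gene when at least 1 bp of it lay in the gene or in a flank of 25 kb to either side.

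MHCC-97H is a cell line of human hepatocellular carcinoma (HCC), and RFX6 belongs to the regulatory factor X family of transcription factors. In the ChIP group, RFX6 with an HA tag was overexpressed from a plasmid and precipitated with an anti-HA antibody, so the intervals describe an overexpressed, tagged protein. The series holds 1 such ChIP library and 1 input library of the same line, for which no treatment is named. The peak list belongs to the ChIP sample, and whether the input was used in calling it is not stated. Input peaks were not analysed here, and there were no replicates, so no value below has a replicate error. The list gave 5019 distinct intervals on chromosomes 1 to 22 and X, with a median score of 30, and read depth was unknown. The score is a whole number deposited by the authors, whose meaning is not stated, and it was used only to order and filter intervals within the list. A peak list holds no expression, so the labelled cell type was not checked against marker genes.

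The 9 enzymes belong to separate families. KAT5, KAT6A, KAT6B, KAT7 and KAT8 are MYST enzymes, which work in multisubunit complexes. KAT2A and KAT2B are the GCN5 and PCAF enzymes of the SAGA and ATAC coactivator complexes. EP300 and CREBBP are the paralogous coactivators p300 and CBP, which transcription factors recruit to enhancers and promoters.

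Of the 9 genes, 4 had an interval, namely KAT6A, KAT6B, KAT5 and CREBBP, and 5 had none within 25 kb. By the same rule, 31.1% of all protein-coding genes had an interval. The same 4 genes had an interval whose midpoint was within 1 kb of a gene end, called a promoter interval here, compared with 15.5% of all protein-coding genes. By family, promoter intervals were found at 3 of the 5 MYST genes, at 1 of the 2 p300/CBP genes and at 0 of the 2 GCN5/PCAF genes. Strand was known for 7 of the 9 genes, and 3 of these had one at the start end by the same distance, against 15.1% of 15843 protein-coding genes of known strand. With a single peak list these shares could not be tested, and they describe this list.

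The 4 genes differed widely in score. The highest scores were 126 at KAT6A, 27 at KAT5, 21 at KAT6B and 13 at CREBBP, and their median was 24.0. Over all 3100 protein-coding genes with a promoter interval, the median of the highest score was 33. KAT6A, chosen for its score, was above this median and the other 3 were below it. With a score of at least 20, 3 of the 9 genes kept a promoter interval, compared with 13.8% of all genes, and CREBBP dropped out. With a score of at least 30, KAT6A alone was left, which was 11.1% of the 9 genes against 9.5% of all genes.

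**Figure D1:**
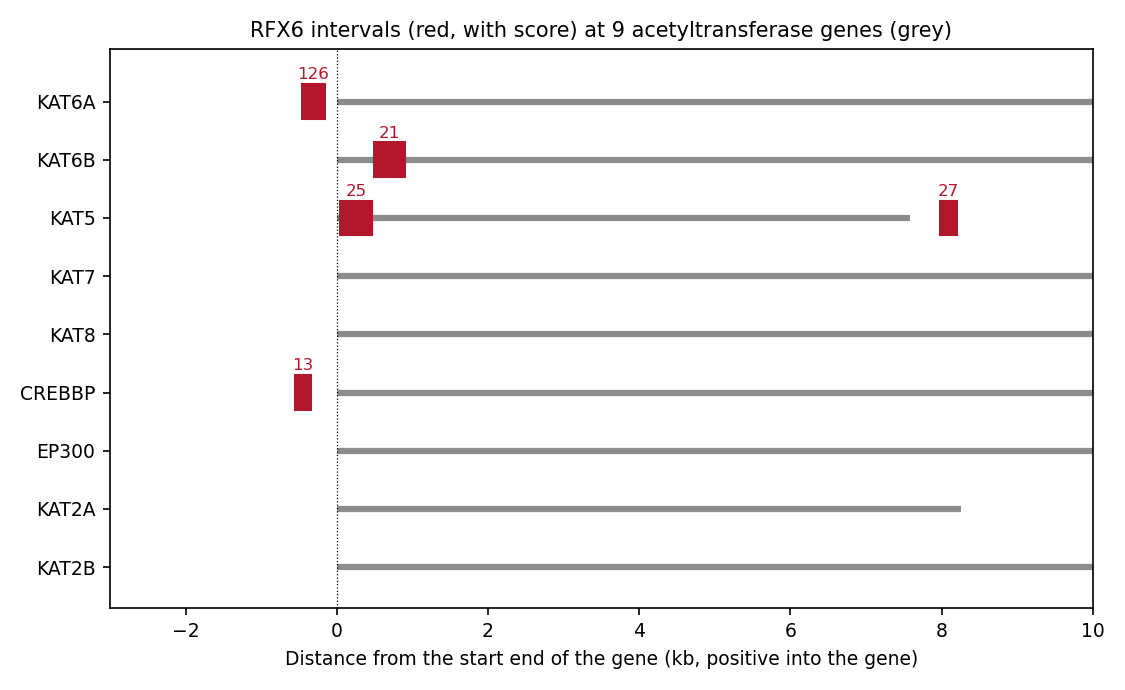
Positions of the intervals of the list (red boxes to scale, with their scores) along the 9 genes (grey lines, cut at 10 kb), on a horizontal axis in kb from the start end of each gene. KAT6A is drawn from its high-coordinate end and KAT8 from its low-coordinate end, since their strand was not in the tables used. The 4 genes with an interval have one within 1 kb of the dotted line, and the interval of score 27 lies beyond the far end of KAT5.

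KAT6A, also called MOZ, is the catalytic subunit of a complex that acetylates histone H3, and it is rearranged in a form of acute myeloid leukaemia. It lies on chromosome 8 from 41929479 to 42051987 (GRCh38) and spans 122.5 kb. Its interval ran from 42052148 to 42052449, was 302 bp wide and was listed on 1 line with a score of 126. This score ranked 2 of 5019 in the list and 1 of the 3054 promoter intervals. The interval lay 161 bp outside the high-coordinate end of the gene, with its midpoint 311 bp from that end. KAT6A is known to be transcribed from this end, although the gene tables used here do not give its strand. The interval lay wholly within KAT6A-AS1, a long non-coding RNA gene from 42051750 to 42104987 that overlaps the end of KAT6A, and its midpoint was 548 bp from the end of KAT6A-AS1. A signal at the start of KAT6A therefore could not be told apart from one at KAT6A-AS1. No other protein-coding gene lay within 25 kb of KAT6A.

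KAT6A had 1 interval within 25 kb. The nearest other interval was 100.3 kb away, at AP3M2, with a score of 34. On the low-coordinate side the next one was 3027 kb from the gene. Such spacing was not particular to KAT6A. The nearest other interval was 285.5 kb from that of KAT6B and 235.4 kb from that of CREBBP, whereas those of KAT5 were 7.52 kb apart. No interval fell inside the gene body. On chromosome 8, 106 of 715 protein-coding genes (14.8%) had a promoter interval, close to the share of all genes, and the 107 promoter intervals had a median score of 32. After KAT6A, the highest promoter score on this chromosome was 104, at RAB11FIP1. Across the list, the next promoter interval was that of OGG1, with a score of 118 and a width of 782 bp, and no interval shared the score of KAT6A.

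By width, the KAT6A interval was ordinary. It was wider than 59.2% of all intervals, whose median width was 272 bp. By contrast, the 12 intervals with a score of at least 100 had a median width of 519 bp and ranged from 280 to 1540 bp, and KAT6A was the second narrowest of them. Among the 301 other intervals within 10 bp of its width, the median score was 32 and the highest was 87, at PLOD1. Slightly wider, at 319 bp, was the interval with the highest score of the list, 170, on chromosome 12, whose nearest protein-coding gene end was that of LPAR5. These comparisons rest on the score that chose the gene and carry no test.

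**Figure D2:**
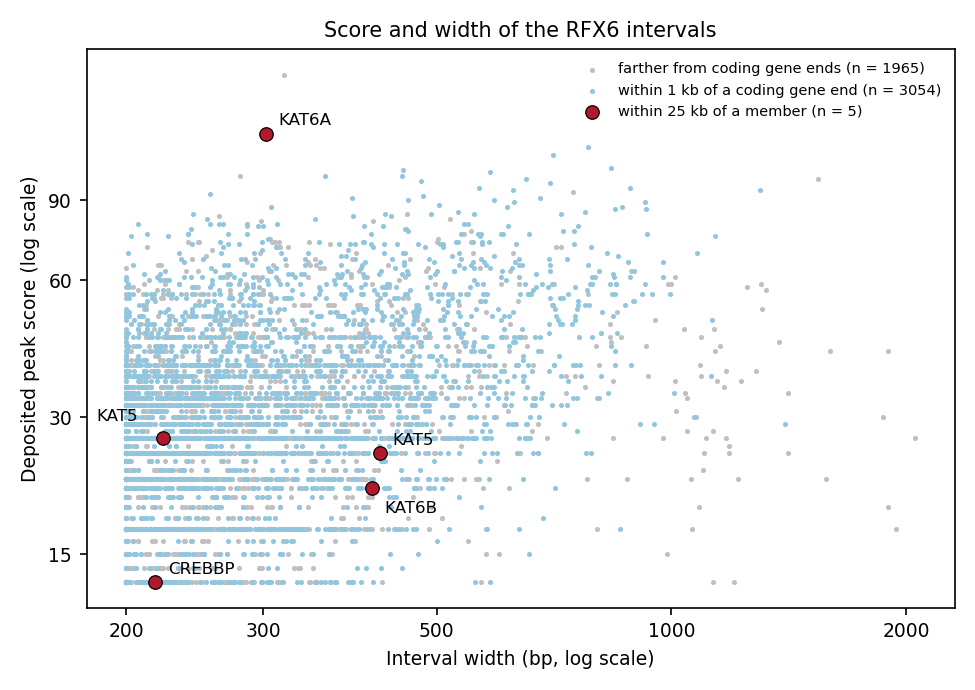
Deposited peak score against interval width in bp, both on log axes, for all intervals of the list (light blue, within 1 kb of a protein-coding gene end, and grey, farther away), with the 5 intervals of the acetyltransferase genes as red points. KAT6A is at 302 bp and a score of 126, the grey point above it is the highest score of the list, 170 at 319 bp, and the other red points lie among the bulk, with scores of 27 or less.

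KAT6B, also called MORF, is the close paralogue of KAT6A and works in the same kind of complex. It is the longest of the 9 genes, at 207.7 kb on chromosome 10 from 74824936 to 75032624, on the plus strand. A single interval of 413 bp was found from 74825425 to 74825837, inside the gene, with a score of 21 on 1 line. It scored above 16.8% of the list and was wider than 79.7% of it, so that it was wide but low, unlike that of KAT6A. RefSeq places several starts in this region, and the midpoint was 152 bp downstream of the nearest one, at 74825479. The midpoint was 695 bp from the low-coordinate end of the gene. Among the promoter intervals of the same score, those at NHEJ1, RANBP2 and PIAS4 were within 10 bp of its width. The paralogues thus both had an interval at the start side, one outside the gene and one inside, with scores of 126 and 21.

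KAT5, also called Tip60, is the acetyltransferase of the TIP60 complex and acts in transcription and in the response to DNA breaks. It is the shortest of the 9 genes, at 7.59 kb on chromosome 11 from 65712018 to 65719604, on the plus strand. It was the only one of the 9 with 2 intervals. The first, from 65712060 to 65712482, was 423 bp wide, had a score of 25 and was wider than 80.9% of the list. Its midpoint was 19 bp downstream of the annotated start at 65712252. The second, from 65720002 to 65720224, was 223 bp wide and had a score of 27. It lay 398 bp beyond the far end of KAT5 and inside RNASEH2C, which encodes a subunit of ribonuclease H2. RNASEH2C runs in the opposite direction, and the midpoint was 685 bp from its start and 509 bp from the far end of KAT5. By distance this interval goes to KAT5, whereas by start sites it goes to RNASEH2C. The interval at the KAT5 start alone had a lower score than the value of 27 counted for the gene. The promoter intervals at RBSN, EPHB3 and USF3 had the score of the first interval and were within 10 bp of its width.

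The sequences of the start regions of KAT5 and KAT6B under their intervals are shown, since these were the members for which a start window (RefSeq, GRCh38.p14), from 250 bases before a start to 50 after it, was overlapped. For KAT5, the 192 bases of the interval just before the annotated start are given (chr11:65712060-65712251, plus strand). For KAT6B, 30 bases that end 19 bases before the annotated start are given (chr10:74825431-74825460, plus strand). Capitals mark the motifs searched for, namely CCGGAA, the core of sites of ETS factors, in KAT5, and GGGCGG, the GC box of SP factors, in KAT6B.
KAT5: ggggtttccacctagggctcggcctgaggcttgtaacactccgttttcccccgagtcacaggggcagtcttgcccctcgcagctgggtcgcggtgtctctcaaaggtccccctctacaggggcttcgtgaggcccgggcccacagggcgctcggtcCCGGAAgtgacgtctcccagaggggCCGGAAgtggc
KAT6B: GGGCGGcgcggggggagcggggctGGGCGG
In these stretches, CCGGAA occurred 2 times in KAT5 and GGGCGG 2 times in KAT6B, where the stretch shown begins and ends on a match. The whole overlapped KAT6B window held 10 matches of GGGCGG on both strands, the KAT5 window 1, and the CREBBP windows 4 and 3.

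These motifs were searched on both strands in the start windows of the 7 members that had one, beside 22183 windows of protein-coding genes. GGGCGG was in 56.3% of all windows and in 81.4% of the 2285 windows that an interval overlapped. CCGGAA was in 21.2% and 31.7% of these. Both motifs also occurred in members without an interval, with 4 matches of GGGCGG in the KAT2B window and 1 match of CCGGAA in the KAT7 window. RFX proteins bind the X-box, which consists of an arm such as GTTGCC followed after a short gap by its reverse complement GGCAAC. Only these exact arms were searched, and an X-box that differs from them at any base would be missed. No member window held both exact arms with a gap of 0, 1, 2 or 3 bases. Such a match was rare, with 23 of 22183 windows for the commonest gap, 2 bases. KAT6A and KAT8 had no window and the CREBBP interval lay outside its windows, so the KAT6A and CREBBP intervals were not searched. Of the KAT6B interval 104 of 413 bp were searched, and of the first KAT5 interval 242 of 423 bp. The arm GTTGCC alone was in 12.6% of all windows and in 12.7% of the overlapped windows. Among the members it was found only in the window of KAT2A, a gene without an interval. CACGTG, the E-box, was in the KAT5 window, upstream of the interval, and in 8.34% of all windows. CCAAT was in 34.7% of all windows and, among the members, only in the third KAT6B window, which no interval overlapped. GCATGCGC, a core of NRF1 sites, was in 3.74% of all windows and in none of the members. A match describes letters in a window and not a bound site.

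GC content did not divide the members with an interval from those without. The overlapped windows of KAT5 and KAT6B had a GC content of 67.3% and 80.7%. The windows of KAT7, KAT2A, EP300 and KAT2B, which had no interval, ranged from 57.7% in KAT7 to 75.3% in EP300 and 80.3% in KAT2B, so the ranges overlapped. The CREBBP window next to its interval had 70.3%. Over all genes, the median was 69.7% in overlapped windows (quartiles 64.3% and 74.7%) and 61.3% in the rest (quartiles 51.7% and 69.3%).

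CREBBP encodes CBP, a coactivator with a bromodomain and an acetyltransferase domain. It lies on chromosome 16 from 3725054 to 3880713, on the minus strand. Its interval, from 3881053 to 3881270, was 218 bp wide and had a score of 13. No interval scored lower, and this score was shared by 177 intervals (3.53%). The interval lay 340 bp outside the start end of the gene, with its midpoint 448 bp upstream of the annotated start at 3880713. It was 90 bp from the nearest start window, so no sequence under it was available here. The nearest other interval was 235.4 kb away, at ADCY9, with a score of 19. Promoter intervals of the same score and of a width within 10 bp were those at ATXN1L, THBS1 and RFC4. CREBBP is thus counted by an interval with the lowest score of the list.

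EP300, the paralogue of CREBBP, had no interval. It lies on chromosome 22 from 41092592 to 41180077, and the nearest interval, at RBX1, was 140.7 kb away. On this chromosome 44 of 451 protein-coding genes (9.76%) had a promoter interval. Since read counts were not given, low coverage could not be told apart from a lack of signal, and CREBBP and EP300 were not shown to differ.

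KAT2A and KAT2B also lacked an interval. KAT2A spans 8.26 kb on chromosome 17 from 42113111 to 42121367, and the nearest interval, at NKIRAS2, was 95.1 kb away. None of its 4 protein-coding neighbours within 25 kb had a promoter interval. KAT2B spans 114 kb on chromosome 3 from 20040446 to 20154404. The nearest interval, at RAB5A, was 92.9 kb from it on one side and the next was 3791 kb away on the other, although 21.7% of the protein-coding genes of chromosome 3 had a promoter interval.

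Of the MYST genes, KAT7 and KAT8 had no interval. KAT7, also called HBO1, acetylates histones at replication origins and transcribed genes. Its start, on chromosome 17 at 49788681, lies within FAM117A, which runs in the opposite direction and has its start end at 49789110. Neither of these facing starts had an interval, and the nearest one was 212.3 kb away, at NXPH3. KAT8, also called MOF, acetylates histone H4 and lies on chromosome 16 from 31117664 to 31131393, in a gene-dense region. It had 5 protein-coding neighbours within 25 kb, with BCKDK 24 bp and PRSS8 40 bp away, and none of them had a promoter interval. The nearest interval, with a score of 29, was 43.9 kb away, at ZNF668, so that KAT8 gained an interval when the flank was widened to 50 kb.

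All intervals of the 9 genes lay near gene ends. None was inside a gene and farther than 1 kb from its ends. Over all protein-coding genes there were 1375 such inside intervals in 1263 Mb of gene sequence, or 1.09 per Mb. At this density, 0.831 would fall in the 0.763 Mb of the 9 genes. Each of the 5 intervals was listed on 1 line, as were 81.6% of all intervals. Among the 15 protein-coding neighbours within 25 kb of the members, 1 had a promoter interval, beside 15.5% of all protein-coding genes. It was RNASEH2C beside KAT5, by the second interval already counted for KAT5. Hence the intervals at KAT6A, KAT6B and CREBBP were at no other protein-coding gene end.

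Next, the genes that work with these enzymes were examined. The partner subunits of their complexes were 59 genes, of which 16 (27.1%) had a promoter interval, beside 15.5% of all protein-coding genes, with a median highest score of 31.5 beside 33. For the MSL and NSL complexes, in which KAT8 is the enzyme, it was 6 of 12, namely MCRS1 with a score of 73, KANSL3 with 60, MSL2 with 47, WDR5 with 34, MSL1 with 31 and HCFC1 with 17. KAT8 itself had none. For the TIP60 complex of KAT5 it was 6 of 17 (35.3%), with ACTL6A at 61 and EP400, its ATPase, at 55, followed by MBTD1, TRRAP, MRGBP and YEATS4 with scores from 31 to 15. The MBTD1 interval was nearer to an end of UTP18. For SAGA and ATAC, the complexes of KAT2A and KAT2B, it was 4 of 24 (16.7%), near the share of all genes, namely WDR5, TAF6L, DR1 and TRRAP. Their scores were from 34 to 21, 2 of them at least 30, and the TAF6L interval was at its far end. The TAF6L interval was also within 1 kb of an end of TMEM179B. For the KAT6 and KAT7 complexes it was 2 of 9 (22.2%), the scaffold BRPF1 with a score of 33 and its paralogue BRD1 with 17. TRRAP and WDR5 are in more than 1 of these lists.

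**Figure D3:**
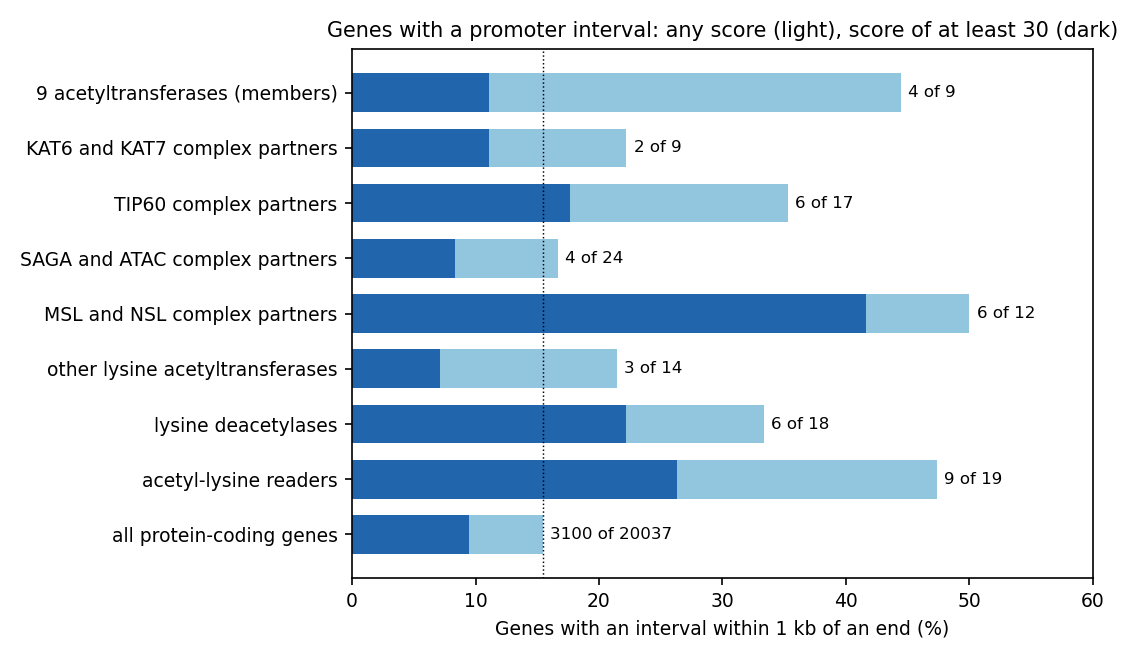
Percentage of genes with an interval within 1 kb of an end (horizontal axis) in the 9 acetyltransferase genes, in lists of partners, other acetyltransferases, deacetylases and readers, and in all protein-coding genes, for any score (light bars) and for scores of at least 30 (dark bars). The 9 genes reach 4 of 9 for any score but 1 of 9 in the dark bar, and the dotted line marks the 15.5% of all protein-coding genes.

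Genes of other enzymes and of readers of lysine acetylation were also compared. Of 14 other enzymes described as lysine acetyltransferases, 3 (21.4%) had a promoter interval, namely GTF3C4 with a score of 38, NCOA3 with 27 and NAT10 with 25. Of 18 enzymes described as lysine deacetylases, 6 (33.3%) had one. They were HDAC2 with 59, SIRT7 with 45, SIRT1 with 43, SIRT3 with 32, HDAC10 with 22 and SIRT6 with 13. Of 19 genes of proteins with domains that read acetyl-lysine, 9 (47.4%) had one, led by BRD9 with 56 and ATAD2 with 50 and followed by BPTF, BRD3, ATAD2B, MLLT3, MLLT1, TRIM33 and YEATS4 with scores from 39 to 15. With a score of at least 30, 1 of the 14 other acetyltransferases, 4 of the 18 deacetylases and 5 of the 19 readers had one, beside 9.5% of all genes. Some of the intervals named here were also within 1 kb of an end of another protein-coding gene. These were DDX31 for GTF3C4, MAFG for SIRT7, PSMD13 for SIRT3, ANKRD24 for SIRT6, TRIP13 for BRD9, NTAQ1 for ATAD2 and UBXN2A for ATAD2B. The lists were drawn up with results of these data known, share genes, and were not tested against each other.

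**Figure D4:**
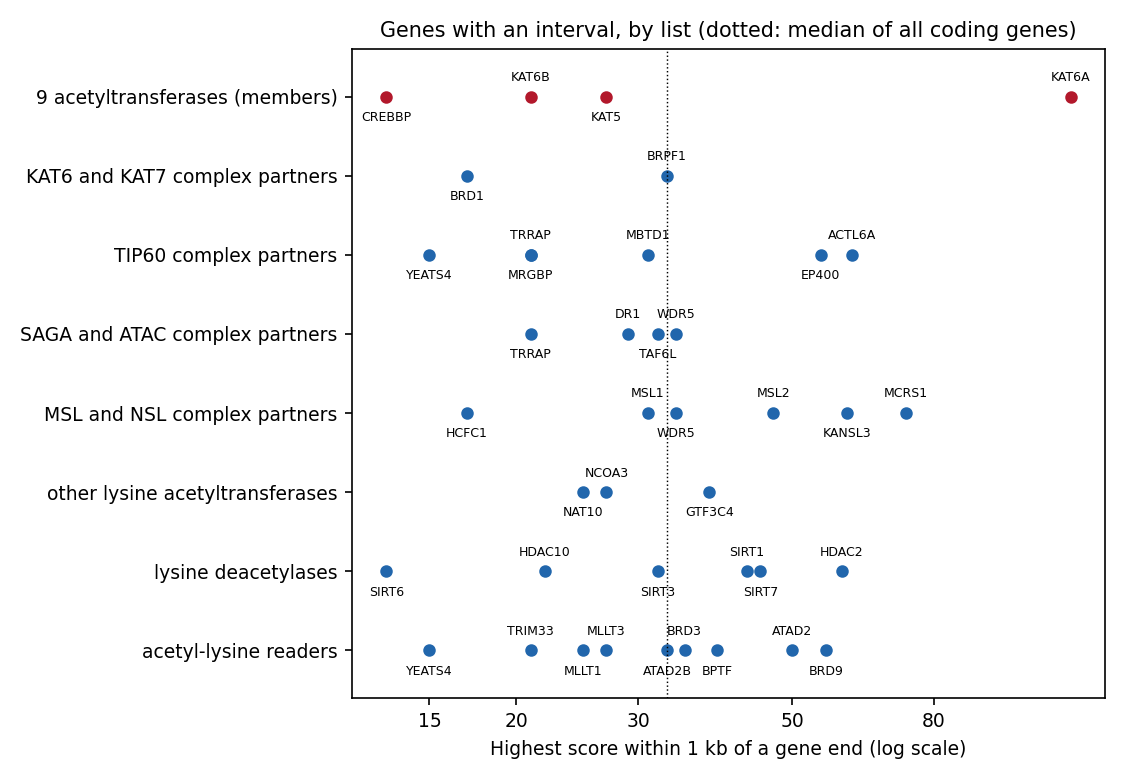
Highest score of the intervals within 1 kb of an end (horizontal log axis) for each gene with such an interval, by list, with the 9 acetyltransferases in red. KAT5 is plotted at 27, the score of the interval beyond its far end, KAT6A, at 126, was chosen for its score, the highest gene of the other lists is MCRS1 at 73, and the dotted line is the median of 33 over all protein-coding genes with such an interval.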

How the data were processed

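Peaks were called by a sequencing company with MACS2 (version 2.1.0.2 per the submitters' processing notes). The authors deposited a list without a header, giving for each line a position and a whole-number score. The aligner and the use of the input were not given in the sources used here. The processing notes name GRCh37, but positions were read as GRCh38, since 60.9% of interval midpoints lay within 1 kb of protein-coding gene ends of GRCh38.p14, and 7.65% and 8.11% after moves of 20 kb.

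Of 6214 lines, 1 with digit separators was repaired. Identical positions were counted once with their highest score, which left 5022 intervals, 5019 of them on chromosomes 1 to 22 and X. Coordinates are 1-based. Genes came from RefSeq, strand and start windows from a RefSeq table that covers 15843 of the 20037 protein-coding genes. It holds no window for KAT6A and KAT8. Exons were not given.

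Members and lists were chosen with earlier results of these data known. The genes named are the members and genes overlapped by or ending within 1 kb of their intervals. Listed genes with a promoter interval were also named, with other protein-coding genes ending within 1 kb of it. The last group is the promoter intervals next to or like those of members in score. A few of the latter, and genes next to members, were named for context after their values were seen. No test was possible with 1 library. The counting was tested on planted intervals. Python 3.11.15, numpy 2.4.6, pandas 2.3.3 and matplotlib 3.10.9 were used.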

Additional observations from a re-analysis of the deposited data

How the results depend on the processing

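The same 4 genes had a promoter interval after merging intervals closer than 1 kb, within 2 kb or 5 kb, with any overlap, and by the nearest gene end. The shares of all protein-coding genes were 15.3%, 17.2%, 19.8%, 15.9% and 13.35%, in this order. With a score of at least 30, the members with an interval and those with a promoter interval both came to 1, KAT6A. This was 11.1% of the 9 genes, beside 20.6% and 9.5% of all genes. The other listed genes with a promoter interval came to 20 of 107 (18.7%), beside 9.5% of all genes. At any score they were 33 (30.8%), beside 15.5%. After moves of the intervals by 20 kb, 0 members had a promoter interval in either direction (2.01% and 2.05% of all genes), and 3 of the other listed genes had one in each direction. The count within 25 kb was 4 and 5 of 9 after the same moves (30.7% and 30.8% of all genes). Since a move of 20 kb is smaller than the flank, the 4 genes could not drop out. These counts therefore do not show whether exact positions matter. Rank 2 of KAT6A was the same by the lowest score of repeated lines and among all lines, and was 1 among promoter intervals by construction. No paired analysis was possible because only 1 ChIP library was given, and for the same reason no replicate could be left out. What the score stands for and the read depth were unknown, so a missing interval cannot be read as a lack of binding.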
